A study of Homo sapiens with 8 samples.

Results

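The genes described here are NFE4, the fetal globin genes HBG1 and HBG2, the embryonic globin genes HBE1 and HBZ, the adult globin genes HBB, HBA1 and HBA2, and BCL11A. These 9 genes were taken by symbol from a table of 60664 genes, with all 8 libraries of the table in 4 groups. NFE4 was chosen by its rise in the resistant cells, so its difference between the cell lines is described here without a test. RNA was sequenced from THP-1, a human acute monocytic leukemia cell line labelled as wild type, and from DAC-resistant THP-1 cells, which the study derived by long-term culture with DAC. DAC (decitabine) is a cytidine analogue that is built into DNA and lowers its methylation. Parental cells with DMSO, parental cells with DAC, DAC-resistant cells with DMSO and DAC-resistant cells with DAC had 2 biological replicates each, and DAC was given at 1 µM for 6 days. There was 1 resistant line, and whether it is a clone is not given in the sources used here, so what is particular to that line cannot be told apart from resistance.

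Hemoglobin genes are switched during development. HBE1 and HBZ are the embryonic beta-type and alpha-type genes, HBG1 and HBG2 encode the gamma chains of fetal hemoglobin, and HBB, HBA1 and HBA2 encode the chains of adult hemoglobin. The product of NFE4 is known as a partner of CP2 (gene TFCP2) in a complex, the stage selector protein, that binds the gamma-globin promoter, while BCL11A is a zinc finger repressor that silences the gamma-globin genes after birth. Inhibitors of DNA methylation are known to raise fetal hemoglobin in erythroid cells, and THP-1 is a myeloid line.

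Levels are FPKM, in which read numbers are divided by gene length and library total. The reads behind the values were recovered from the steps that whole reads leave, and came to between 28776839 and 33492567 per library on all genes. Parental cells with DAC had 30957 and 30999 genes above 0, and the other libraries had between 26069 and 27437. Differences were tested with limma on log2(FPKM + 1), and a gene is called raised or lowered at an unadjusted p of at most 0.01 with a difference of at least 1 on that scale. Of the 9 members, 8 had a read in some library and 2, NFE4 and BCL11A, passed the filter of 1 FPKM in at least 2 libraries, as did 14899 genes in all. NFE4 could pass through the groups in which it is high.

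NFE4 went from near 0 to one of the more abundant transcripts of the resistant cells. Its level in DMSO-treated parental cells was 0.0294 and 0.0308 FPKM, which is 1 read in each library and lies under the level of 3 reads (0.0883 and 0.0923 FPKM). In parental cells with DAC it was 21.7 and 23.3 FPKM, from 641 and 686 reads. In DMSO-treated resistant cells it was 67.5 and 64.4 FPKM, from 2284 and 2074 reads. In DAC-resistant cells with DAC it was 94.4 and 91.3 FPKM, from 3231 and 2998 reads. The 4 groups stood in this order without any overlap between libraries, from 0.0301 ± 0.000952 (SD, n = 2) through 22.5 ± 1.09 (SD, n = 2) and 65.9 ± 2.22 (SD, n = 2) to 92.9 ± 2.21 FPKM (SD, n = 2). Ranked by FPKM among all genes of a library, NFE4 was at place 489 and 512 in DMSO-treated resistant cells and at 315 and 324 with DAC, against 25290 and 25087 in DMSO-treated parental cells.

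With DAC in parental cells NFE4 was higher than with DMSO in both libraries. The DMSO libraries are among those that chose NFE4, so this difference is given as a description too. It was 4.51 on the log2(FPKM + 1) scale (SE 0.04). The pseudocount keeps this value below the ratio of the reads per library total, which was 749 with a 95% exact interval for counting error from 207 to 6189, since only 2 reads stand in the reference group. Of all genes tested in this comparison, 6.66% were called raised and 2.64% lowered.

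In the DAC-resistant cells, which already had NFE4 in DMSO, the DAC effect was small. The difference was 0.49 (SE 0.04), higher in both DAC libraries than in both DMSO libraries but below the size needed for a call, and the ratio of reads was 1.41 (1.35 to 1.46). In this comparison 0.114% of genes were called raised and 0.121% lowered. The DMSO libraries of this comparison, too, are among those that chose NFE4.

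Between the lines, as a description, NFE4 was 6.02 higher on the log2(FPKM + 1) scale in DAC-resistant than in parental cells, both with DMSO, the second largest of 14899 differences, and the ratio of reads was 2193 (607 to 18118). With DAC in both lines the difference was 2.00, from a ratio of reads of 4.13 (3.89 to 4.38). The percentages of all genes called in these comparisons were 4.45% raised and 4.28% lowered with DMSO, and 5.29% raised and 9.17% lowered with DAC.

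**Figure D1:**
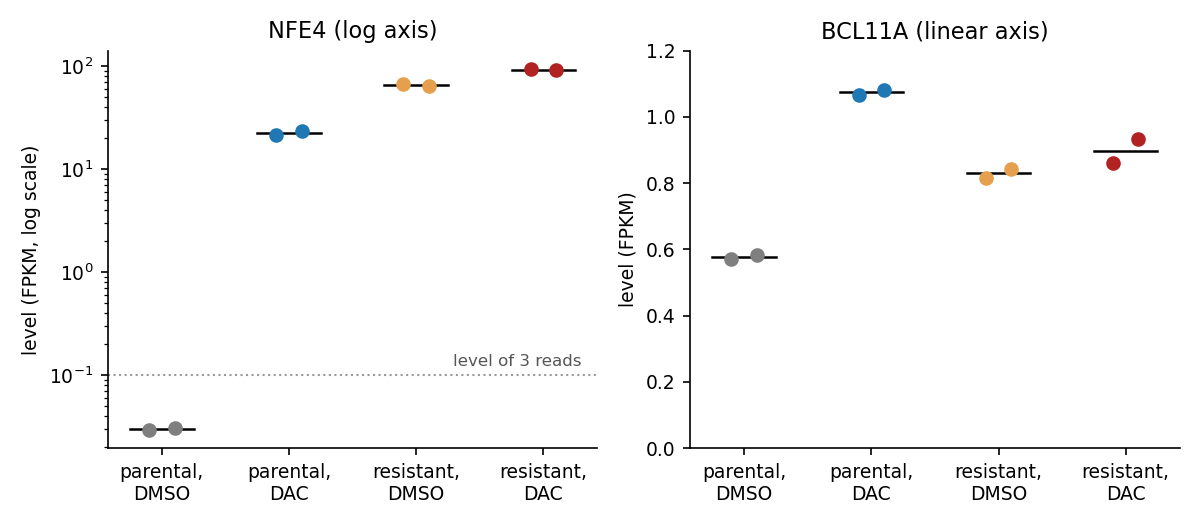
Level of NFE4 (left, log axis) and of BCL11A (right, linear axis from 0) in FPKM, with 1 point for each library and a bar at the mean of each group of 2; the dotted line is the highest level that 3 reads give for NFE4. NFE4 stood at 0.0294 and 0.0308 FPKM in DMSO-treated parental cells and at 94.4 and 91.3 FPKM in DAC-resistant cells with DAC, while BCL11A stayed between 0.572 and 1.08 FPKM.

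The NFE4 gene (ENSG00000230257) lies at chr7:102973483-102988856 on the plus strand of hg38. The GENCODE annotation classes it as a long non-coding RNA with 1436 exonic bases, none of them shared with exons of another gene, although it lies inside FBXL13, a gene of the minus strand. The whole reads above rest on a length of 1072 bases, which fitted the steps of its values in place of the annotated length. A longer or shorter true length would scale all its reads alike and leave the ratios unchanged.

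The 15 other genes of the table within 250 kb show what surrounds it, and 6 of them passed the filter. FBXL13, the host gene, which encodes an F-box protein, had 0.252 and 0.123 FPKM in DMSO-treated parental cells, 1.19 and 1.16 with DAC, 2.09 and 2.56 in DMSO-treated resistant cells and 2.57 and 2.66 with DAC. Its group means stood in the order of those of NFE4. FBXL13 passed the filter without any parental library with DMSO, so its differences are given as a description. They were 1.48 between the lines with DMSO and 0.88 with DAC in parental cells. Whether the counting used the strand is not given in the sources used here, and without strand, reads from FBXL13 introns that fall on NFE4 exons could not be told from its own.

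LRRC17, a gene for a leucine-rich repeat protein 28.4 kb away, went the other way. It had 8.87 and 8.78 FPKM in DMSO-treated parental cells, 2.93 and 2.79 with DAC, 0.247 and 0.224 in DMSO-treated resistant cells, and 0.222 and 0.173 with DAC. It fell by 1.35 under DAC in the parental line (limma adjusted p = 8.4e-05) and by 2.99 between the lines with DMSO (adjusted p = 1.1e-05). Both come from the fit without the filter, which it passed through parental cells alone. Those groups do not overlap. A lncRNA gene with no symbol, ENSG00000236226, 41.2 kb away, was at 0 in both parental libraries with DMSO and between 0.437 and 1.70 FPKM in the other 6, and was called raised between the lines with DMSO (1.33, adjusted p = 0.027 in the fit without the filter, which it passed mainly through DAC-resistant cells). FAM185A, ARMC10 and NAPEPLD were called in none of these comparisons under limma.

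The fetal genes and the embryonic HBE1 had at most 1 read each in the whole series. HBG1 had 0 reads in all 8 libraries, and 3 reads would have given between 0.0641 and 0.0744 FPKM. HBG2 had 1 read in all, in parental cells with DAC (replicate 1), and HBE1 had 1 read in the same library. DAC-resistant cells, with the highest NFE4, had no read on HBG1, HBG2 or HBE1 in any of their 4 libraries. These levels are at or under what the depth can resolve, so no fold is given.

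How the reads were counted limits these zeros. In the GENCODE annotation 55.6% of the exonic bases of HBG2 and 90% of those of HBE1 lie under exons of other genes of the same strand, among them a gene that reads through from HBG1 to HBG2 (ENSG00000284931, 0 in all libraries) and another that reaches from the HBG2 region beyond HBE1 (ENSG00000239920). The latter had 0.186 and 0.111 FPKM in parental cells with DAC, against at most 0.0564 elsewhere. Of the 488 stretches of 100 bases in the HBG1 transcript, 53.9% also occur in HBG2, and for HBA1 against HBA2 the share was 79.7%. Reads that fall in such bases may be left uncounted or be split between the copies, and the setting the authors used is not given in the sources used here. HBZ shares 17.7% of its exonic bases with HBM, on the same strand. The globin genes other than HBB are uncertain to that extent. HBB shares no exonic base with another gene.

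HBZ, the embryonic alpha-type gene, was found in traces only. It had 2 and 4 reads in DMSO-treated parental cells, 0 and 5 with DAC, 0 and 0 in DMSO-treated resistant cells, and 6 and 0 with DAC. DAC-resistant cells with DMSO were below parental cells with DMSO by these few reads, the other groups overlap, and the highest level was 0.162 FPKM. HBA1 had at most 3 reads in any library. HBA2 had 15 reads in replicate 2 of parental cells with DAC, 3 in replicate 1 of DAC-resistant cells with DMSO, 1 in replicate 2 of parental cells with DMSO and none in the other 5 libraries.

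HBB was the globin gene with most reads, 189 in all. It had 7 and 18 reads in DMSO-treated parental cells (0.169 and 0.455 FPKM), 9 and 28 with DAC (0.251 and 0.781 FPKM), 121 and 6 in DMSO-treated resistant cells (2.94 and 0.153 FPKM), and 0 and 0 with DAC. The 121 reads of replicate 1 (95% Poisson interval 100.4 to 144.6) and the 6 of replicate 2 (2.20 to 13.1) came from the same labelled group, so the spread within it exceeds counting error and also the distance between the group means. HBB did not pass the filter. In the same fit without the filter none of its 5 comparisons was called, with limma adjusted p between 0.40 and 0.87. Without replicate 1 of DAC-resistant cells with DMSO the difference between the lines with DMSO turned from 0.71 to -0.18, and without replicate 2 it was 1.59 and past the call. Without that replicate 2 the DAC difference in DAC-resistant cells (-1.09) also became -1.98 and the difference of the DAC effects (-1.29) became -2.17, both past the call. Such fits leave a single library in that group, and the other groups give the spread. With all libraries and a pseudocount of 0.01 the DAC difference in DAC-resistant cells was -6.12 and past the call as well, so what HBB shows depends on single libraries and on how its zeros are treated. An exact permutation test of 2 libraries against 2 cannot go below p = 0.333.

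The other globin genes with any read were not called either in that fit. The 5 genes HBZ, HBA1, HBA2, HBG2 and HBE1 had limma adjusted p of at least 0.31 in every comparison between groups, and a p that misses the threshold does not show that values were alike. Reads on the 7 globin genes together were 9 and 24 in DMSO-treated parental cells, 11 and 49 with DAC, 127 and 6 in DMSO-treated resistant cells, and 6 and 0 with DAC.

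**Figure D2:**
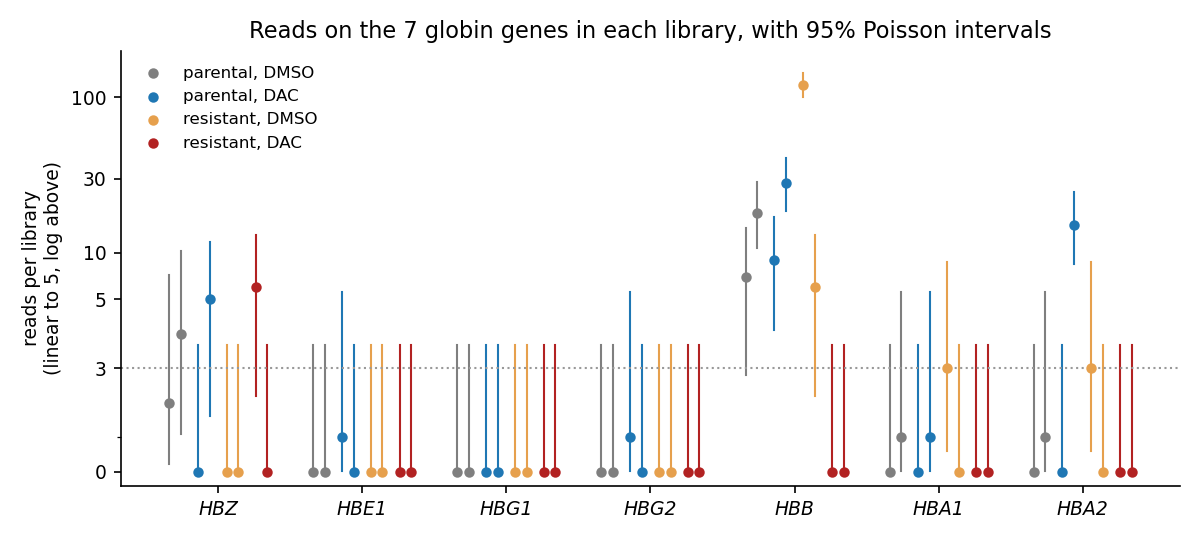
Reads recovered on each of the 7 globin genes in each of the 8 libraries, on an axis that is linear to 5 and logarithmic above, with exact 95% Poisson intervals that cover counting error only and a dotted line at 3 reads. HBG1 has no read, HBG2 and HBE1 have 1 each, and the 121 HBB reads of 1 DAC-resistant library with DMSO stand beside 6 in its replicate.

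BCL11A, the repressor of the gamma-globin genes, was present at a low level throughout. It had 0.572 and 0.583 FPKM in DMSO-treated parental cells, 1.07 and 1.08 with DAC, 0.817 and 0.843 in DMSO-treated resistant cells, and 0.860 and 0.935 with DAC, each from 433 reads or more. Parental cells with DMSO were lowest and parental cells with DAC highest, with no overlap between any 2 groups.

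With DAC in parental cells BCL11A was higher by 0.40 on the log2(FPKM + 1) scale (SE 0.08, 95% interval 0.20 to 0.59; limma adjusted p = 0.017), below the size of a call. BCL11A passed the filter only through the parental libraries with DAC, so its tests are given from the fit without the filter, over 39592 genes. For a gene under 1 FPKM that scale shrinks the change, and the ratio of reads was 1.86 with a counting interval from 1.71 to 2.03. In DAC-resistant cells the DAC difference was 0.05 (95% interval -0.15 to 0.25; adjusted p = 1). DAC-resistant cells with DMSO were higher than parental cells with DMSO by 0.21 (adjusted p = 0.14), with a ratio of reads of 1.44 (1.32 to 1.57). With DAC in both lines the difference was -0.13 (adjusted p = 0.31), and it turned to 0.12 under quantile normalization. The DAC effects of the lines differed by -0.34 (95% interval -0.62 to -0.06; adjusted p = 0.10). In the filtered fit of that difference 3.46% of all genes were called raised and 7.16% lowered.

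Of the genes that act on globin switching, a list of 26 was examined, chosen with earlier results of these data known, and 20 passed the filter. With DAC in parental cells 4 were called raised and none lowered, with a median over the 20 of -0.01 beside 0.06 over all genes, of which 6.66% were called raised and 2.64% lowered. DAC gave no call among them in DAC-resistant cells under limma or in voom on the recovered reads. There 5 had an unadjusted limma p under 0.05, a threshold whose share over all genes is not given here. Of all genes 0.114% were called raised and 0.121% lowered there (0.527% in voom), so a count of 0 is near the background. Between the lines with DMSO 4 were called raised and 1 lowered (median -0.06, all genes 0.02, with 4.45% and 4.28% of all genes called), and with DAC 3 raised and 3 lowered (median 0.08, all genes -0.03, with 5.29% and 9.17% called). These comparisons share libraries.

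LIN28B, a fetal RNA-binding protein that blocks the let-7 microRNAs and is known to lower BCL11A protein, rose in the same groups as NFE4. It had 2 and 1 reads in DMSO-treated parental cells, 399 and 393 with DAC, 3806 and 3838 in DMSO-treated resistant cells, and 4131 and 4185 with DAC. As levels these are 0.0106 and 0.00555 FPKM, 2.44 and 2.41, 20.3 and 21.5, and 21.8 and 23.0 FPKM. Every library of DAC-resistant cells was above every library of parental cells. LIN28B passed the filter without any parental library with DMSO, so its differences are given as a description. With DAC in parental cells it was 1.76 higher than with DMSO (SE 0.05), with a ratio of reads of 298 (counting interval 102 to 1448). With DMSO in both lines it was 4.44 higher in DAC-resistant than in parental cells (SE 0.05), and 2.77 higher with DAC. In DAC-resistant cells DAC moved it by 0.10 (95% interval -0.03 to 0.22).

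IGF2BP3 and IGF2BP1, RNA-binding proteins of fetal tissues, were higher in the resistant line as well. IGF2BP3 had 0.595 and 0.568 FPKM in DMSO-treated parental cells, 0.409 and 0.448 with DAC, 4.52 and 4.62 in DMSO-treated resistant cells, and 4.76 and 5.05 with DAC. Its difference between the lines in the fit without the filter, which it passed only through DAC-resistant cells, was 1.82 with DMSO (limma adjusted p = 3.4e-05) and 2.05 with DAC (adjusted p = 1.2e-05), and its groups with DAC in parental cells lay below those with DMSO. IGF2BP1 rose between the lines with DMSO by 1.15 (adjusted p = 0.00013), from 1.25 and 0.904 FPKM to 3.56 and 3.64, and with DAC the difference was 0.89 (adjusted p = 0.00031), short of a call. NFIX, a nuclear factor known to restrain gamma-globin in adult cells, was the remaining gene raised with DMSO (1.12, adjusted p = 5.5e-05), and it is named because the count is small, after its values were seen.

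Beside LIN28B, the factors counted as raised with DAC in parental cells were GATA2, GATA1 and NFE2. GATA2, a factor of blood progenitors, had 3.20 and 3.42 FPKM in DMSO-treated parental cells and 34.8 and 35.1 with DAC, and between 2.72 and 3.33 FPKM in the 4 DAC-resistant libraries. Its rise was 3.06 (SE 0.08; limma adjusted p = 6e-07). GATA1, the master factor of red cell genes, had 5 and 6 reads in DMSO-treated parental cells and 139 and 111 with DAC, and 1 read in all 4 DAC-resistant libraries together. It passed the filter only through the parental libraries with DAC, and in the fit without the filter its difference there was 1.85 (SE 0.11; adjusted p = 0.00023). NFE2, a factor of globin and platelet genes that is not the product of NFE4, had 12.9 and 12.8 FPKM in DMSO-treated parental cells, 29.4 and 30.6 with DAC, and between 1.37 and 2.06 in DAC-resistant cells. It rose by 1.16 in the DAC-treated parental libraries (adjusted p = 9.2e-05) and was lower by 2.33 in DMSO-treated resistant cells (-2.33, adjusted p = 5.1e-06). NFE4 was thus highest in DAC-resistant cells and these 3 factors in parental cells with DAC.

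TFCP2, the partner with which the NFE4 product binds the gamma-globin promoter, was present in every library, between 13.7 and 16.9 FPKM. None of its comparisons was called, and its 95% interval between the lines with DMSO was -0.23 to 0.08. The repressors ZBTB7A and IKZF1 lay between 13.3 and 16.4 and between 25.2 and 28.9 FPKM, and KLF1, the erythroid activator of adult HBB, had no read outside parental cells with DAC, where it had 0.361 and 0.0451 FPKM.

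**Figure D3:**
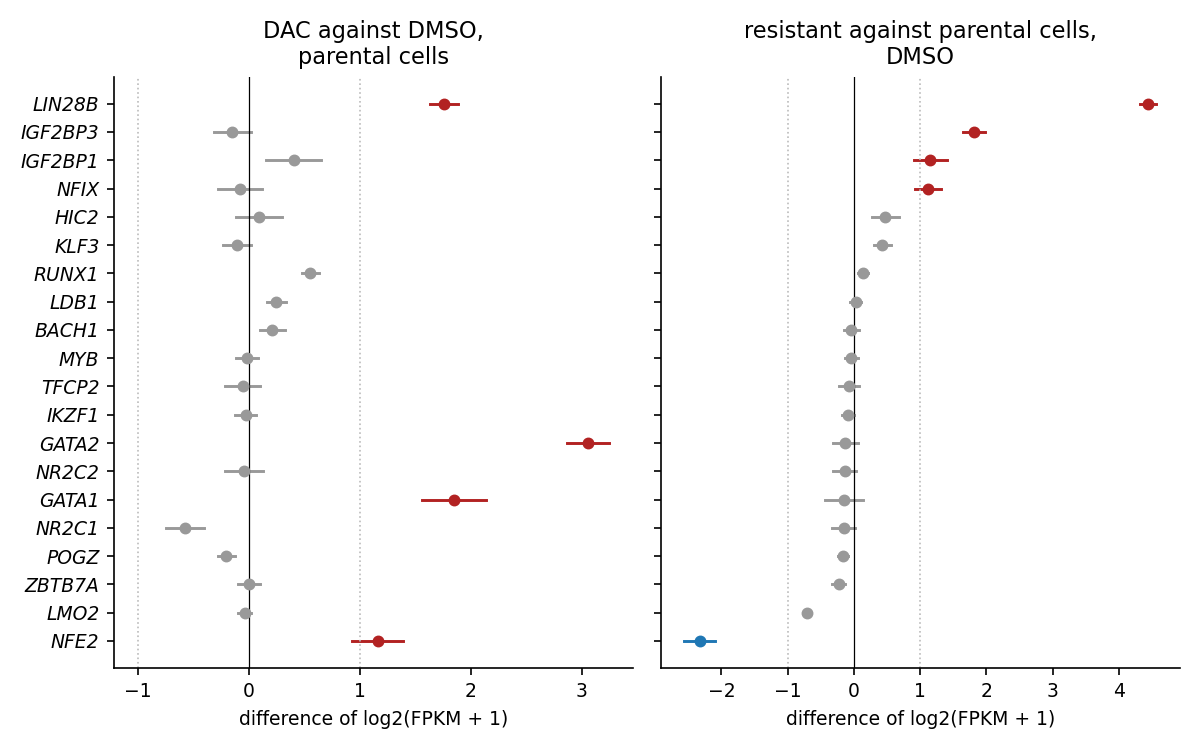
Difference of log2(FPKM + 1) with its 95% interval for the 20 globin switching factors that passed the filter, for DAC against DMSO in parental cells (left) and for DAC-resistant against parental cells with DMSO (right). Red points were called raised, blue lowered and grey not, and dotted lines mark a difference of 1. All intervals and calls shown are from the filtered fit, also for GATA1, IGF2BP3 and LIN28B, which passed the filter only through groups where they are high. LIN28B stands at 1.76 and 4.44, GATA2 at 3.06 on the left alone, and NFE2 at 1.16 on the left and -2.33 on the right.

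DAC lowers DNA methylation, which lies mostly at CG pairs. The promoters held in the RefSeq promoter table (GRCh38.p14, 250 bases before to 50 after each start) are therefore shown for 2 genes above, with every CG in capitals. Of the 9 members BCL11A alone was matched there, with 5 starts. The start farthest upstream (chr2:60553875-60554174, minus strand) has 27 CG, and 28.2% of the 35116 promoters in the table have at least as many. For LIN28B the first of 2 starts (chr6:104940715-104941014, plus strand) has 37 CG, a number that 11.3% of promoters reach, and the median promoter has 14. The data do not tell which start was used, and no methylation was measured in these libraries.
BCL11A: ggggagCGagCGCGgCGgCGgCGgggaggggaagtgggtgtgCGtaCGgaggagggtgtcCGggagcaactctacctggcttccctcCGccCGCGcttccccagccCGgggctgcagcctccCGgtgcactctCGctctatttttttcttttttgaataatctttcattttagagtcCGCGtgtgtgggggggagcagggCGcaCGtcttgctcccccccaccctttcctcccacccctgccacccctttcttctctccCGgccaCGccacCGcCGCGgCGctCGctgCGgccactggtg
LIN28B: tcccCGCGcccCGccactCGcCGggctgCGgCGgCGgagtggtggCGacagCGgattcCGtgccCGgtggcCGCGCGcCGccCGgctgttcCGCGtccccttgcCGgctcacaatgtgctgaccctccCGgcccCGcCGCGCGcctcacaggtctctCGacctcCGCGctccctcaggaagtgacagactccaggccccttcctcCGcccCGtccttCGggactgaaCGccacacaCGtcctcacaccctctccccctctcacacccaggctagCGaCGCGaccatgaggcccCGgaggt
The other LIN28B start has 8 CG, and the other BCL11A starts have between 5 and 25. The letters TGACCA, which BCL11A is known to bind at the gamma-globin genes, were searched on both strands, and 1 of the 5 BCL11A promoters holds them, as do 10.7% of all promoters in the table.

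The subunits of the corepressor and DNA methylation complexes at the gamma-globin genes, 23 genes that all passed the filter, gave 1 call in the comparisons between groups. Under limma none was called with DAC in parental cells, with DAC in DAC-resistant cells or between the lines with DMSO. Voom on the recovered reads called none there either. An unadjusted limma p under 0.05 was found for 18, 14 and 16 of them. The share of all genes under that p is not given here, so these counts are not read as a result. Among all genes tested limma called 6.66% raised and 2.64% lowered, 0.114% and 0.121%, and 4.45% and 4.28%, so few or no limma calls in 23 genes are near the background. Voom called 18.2%, 0.527% and 17.5% of all genes there. Its count of 0 thus lies below the share with DAC in parental cells and between the lines with DMSO, a gap that was not tested. MBD3, a subunit of the NuRD complex, was lower between the lines with DAC (-1.12, adjusted p = 3.2e-05), where 9.17% of all genes were lowered, with 7.59 and 8.21 FPKM in parental and 3.12 and 3.08 in DAC-resistant cells. DNMT1, which copies DNA methylation at replication and is the target of DAC, was between 17.3 and 26.7 FPKM. With DAC it was higher in parental cells (0.25, limma adjusted p = 0.00032) and lower in DAC-resistant cells (-0.39, adjusted p = 0.0012). Between the lines with DAC its difference was -0.57 (adjusted p = 4.7e-06), and all of these were short of a call.

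The erythroid markers were mixed. GYPB was at 0 in all libraries, EPB42, a red cell membrane protein, was at most 0.0248 FPKM, SLC4A1, the anion exchanger of red cells, at most 0.0431 FPKM and ALAS2, the erythroid first enzyme of heme synthesis, at most 0.213 FPKM. Others on the list were clearly present. GYPC stood between 21.5 and 28.0 FPKM, SLC25A37 between 13.7 and 23.5, TRIM58 between 9.97 and 13.8 and EPOR, the erythropoietin receptor, between 1.74 and 5.19 FPKM. With DAC in parental cells ANK1 went from 0.356 and 0.373 to 0.943 and 0.883 FPKM (0.49, limma adjusted p = 0.0065 without the filter). RHAG had 22 and 7 reads there and none elsewhere. EPOR was lower there (-0.72, limma adjusted p = 0.0021), and CA2 went from 193.8 and 203.3 to 116.7 and 110.7 FPKM. Of 24 erythroid markers 10 passed the filter, and none was called with DAC in either line under limma, where 6 in parental and 4 in DAC-resistant cells had an unadjusted p under 0.05 and voom called 2 and 0. Between the lines with DMSO limma called ERMAP lowered (-1.43, adjusted p = 3e-06) and no other, and voom called 4. With DAC limma called none, where 9 had an unadjusted p under 0.05, and voom called 7 of 17. The share of all genes with an unadjusted p under 0.05 is not given here, so the counts at that threshold are not read as a result. Of all genes limma called 9.31% with DAC in parental cells, 0.235% with DAC in DAC-resistant cells, 8.73% between the lines with DMSO and 14.5% with DAC. Of all genes voom called 18.2% with DAC in parental cells, 0.527% with DAC in DAC-resistant cells, 17.5% between the lines with DMSO and 26.1% with DAC. Their summed level, between 199.7 and 341.7 FPKM, came mostly from CA2, a carbonic anhydrase, at 110.7 to 261.0 FPKM. In bulk RNA, fewer cells of a type and less RNA per cell cannot be told apart.

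A list of other globin and related genes held 10, among them the delta and theta genes, pseudogenes, AHSP and BGLT3. None passed the filter and 5 were at 0 in all libraries. MB, the oxygen store of muscle, had 1.26 and 0.818 FPKM in parental cells with DAC against at most 0.0156 in the other 6 libraries, and CYGB had 0.476 and 0.476 FPKM there against at most 0.0690. In the fit without the filter MB rose by 1.00 to 2 decimals, which falls just short of a call, with an adjusted p of 0.0017 in limma. The pseudocount shrinks that value: MB had 122 reads with DAC against 2, a ratio of 68.8 (counting interval 18.7 to 574.8). Voom called both MB and CYGB in this comparison, where it called 18.2% of all genes. BGLT3, a non-coding RNA beside the gamma-globin genes, had 1 read in each parental library with DAC and none in the other 6, which is under the floor of 3 reads.

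Of the 13 genes of heme synthesis and breakdown, all of which passed the filter, 1 was called raised with DAC in parental cells and 1 between the lines with DMSO, near the 6.66% and 4.45% of all genes. HMOX1, which breaks heme down, was the one raised by DAC in parental cells, from 1.64 and 1.44 to 20.6 and 20.3 FPKM (3.08, limma adjusted p = 2.6e-06), and stayed at or below 0.981 FPKM in DAC-resistant cells. ALAS1, the first enzyme of heme synthesis outside red cells, was raised between the lines with DMSO, from 62.3 and 62.0 to 146.6 and 143.7 FPKM (1.21, adjusted p = 5.6e-07). Of the 8 megakaryocyte markers 3 passed the filter, and ITGA2B, the platelet integrin subunit, passed only through parental cells with DAC, where its difference in the fit without the filter was 1.42 (adjusted p = 0.00032). THBS1, the platelet matrix protein, likewise above the filter there alone, had 1.18 and 1.42 FPKM against at most 0.258 elsewhere (0.89, adjusted p = 0.0019 without the filter, short of a call). GP9, a platelet glycoprotein, had 18 and 37 reads there and none elsewhere. Its difference in the fit without the filter was 1.07 (limma adjusted p = 0.0072), past the call. In voom 3 of 5 tested markers were called with DAC in parental cells and 5 of 5 between the lines with DAC. Of all genes voom called 18.2% and 26.1% in these comparisons. PF4, PPBP and GP1BB were at 0 in all libraries.

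The 15 monocyte and myeloid markers all passed the filter, with SPI1 between 67.4 and 128.9 FPKM. With DAC in parental cells 3 of them were called raised and 1 lowered, beside 6.66% and 2.64% of all genes, CTSG being the one lowered (-1.02), a call lost under upper-quartile scaling (-0.83), quantile normalization and without replicate 2 of either parental group (-0.99 without the DMSO and -0.98 without the DAC library). CD14 rose by 3.05 (limma adjusted p = 5.4e-06) and LYZ by 1.91 (adjusted p = 2.3e-05). Between the lines with DMSO 1 was called raised and 4 lowered, beside 4.45% and 4.28% of all genes, ITGAM by -1.40 (adjusted p = 1.2e-05). Of 11 markers of B and T cells, TRAC, the constant region of the T cell receptor alpha chain, passed the filter only through parental cells with DAC (1.92, adjusted p = 0.00024 without the filter), where it had 3.31 and 2.87 FPKM beside at most 0.426 for CD3D. Markers of several blood lineages thus moved in the same libraries as GATA1 and GATA2, and their part in those results was not tested.

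Around the beta-globin genes, within 250 kb, 61 other genes are listed, 34 of them at 0 in all libraries, and 2 passed the filter. Both are antiviral TRIM genes, and the window reaches 250 kb beyond the annotated end of HBE1. That gene model is long and spans chr11:5268345-5505652. TRIM5 starts at 5663195 and TRIM22 at 5689610, so both lie in the window through the far end of that model. TRIM22 had 1.77 and 1.76 FPKM in DMSO-treated parental cells and 27.3 and 29.1 with DAC, a rise of 3.40 (limma adjusted p = 1.7e-07), and TRIM5 rose by 1.66 (adjusted p = 4.2e-06), from 3.75 and 4.08 to 15.4 and 13.7 FPKM. Around the alpha-globin genes 15 of 34 other genes passed the filter. HBZ, HBA1 and HBA2, with at most 15 reads each in any library, stood beside neighbours with up to 40.04 FPKM.

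The genes whose log2(FPKM + 1) over the 8 libraries went most like that of NFE4 were KIAA1211L, HORMAD1, HLA-E, GBP5 and GPR158, with Pearson r between 0.9967 and 0.9972. The 8 points fall into 4 groups that all genes share, so such values describe an order of groups and no more. HORMAD1, a meiosis gene, had 0.314 and 0.178 FPKM in DMSO-treated parental cells, 11.3 and 10.8 with DAC, 31.8 and 32.1 in DMSO-treated resistant cells and 44.9 and 46.6 with DAC. Its 4 steps are those of NFE4. LIN28B had r = 0.9417 with NFE4 and BCL11A 0.7294.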

How the data were processed

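The authors trimmed reads with cutadapt 1.9.1, aligned them to hg38 with HISAT2 2.1.0, sorted them with SAMtools 1.6 and counted them with HTSeq 0.13.5. They deposited FPKM values multiplied by 1000 for each library. Values were divided by 1000. Reads were recovered as whole multiples of 1 read, using GENCODE exon lengths or a length that fitted the steps, within 0.02 read, and 88.3% of genes above 0 came out whole by the GENCODE length. A fitted length, chosen so that reads are whole, brings this to 99.68% and is no independent check for those genes, NFE4 among them. Recovered reads were 104.53% to 104.94% of the totals that the scaling implies.

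With limma 3.58.1 (R 4.3.3), log2(FPKM + 1) was modelled by 4 group means with trended, moderated variances, two-sided, over genes with 1 FPKM in 2 libraries. Benjamini-Hochberg values are over all genes tested. Members under the filter come from the same fit without it (list counts use the filtered fit). So do BCL11A, GATA1, IGF2BP3, ITGA2B, TRAC, THBS1, CD68, LRRC17 and ENSG00000236226, which passed it only or mainly through the groups where they were high. LIN28B and FBXL13, which passed it without any parental library with DMSO, are given from the filtered fit as a description, without p. With 2 libraries a group, p-values rest on a spread shared across genes. The fit was first run on simulated data for DAC against DMSO in parental cells, over 14899 genes. The outcome of that run is not reported here, so it is no check of the values above.

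The members and lists were chosen with earlier results of these data known. Named were all members, up to 4 called genes of each list with the largest difference, neighbours within 250 kb, and the 5 genes most like NFE4. Alternatives were pseudocounts of 0.1 and 0.01, no filter, a mean of 5 FPKM, TPM, upper-quartile and quantile scaling, the replicate number as a block, voom on recovered reads (minimum 10 reads), adjusted p-values for calls, and leaving out each library. A group left with a single library took its spread from the other groups. Read ratios carry exact 95% intervals for counting error only.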

Additional observations from a re-analysis of the deposited data

Results flagged for a closer look

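By limma's test of the difference itself, the DAC effect differed between DAC-resistant and parental cells for the named genes listed here. NFE4 is left out, since it was chosen by its rise in the resistant cells. As a description, its difference was -4.02. Negative values mean a lower value of the effect in DAC-resistant cells. In all, 3.46% of genes were called raised and 7.16% lowered in this test, and most of the genes here are named because they were called, so their number is no result. GATA1, ITGA2B, TRAC and CD68 passed the filter only with the help of parental cells with DAC, and LRRC17 through parental cells alone. The values of these genes come from the fit without it. Among the switching factors the differences were -3.04 for GATA2 (adjusted p = 4.9e-06), -1.87 for GATA1 (0.0011) and -1.36 for NFE2 (0.00032). LIN28B, which passed the filter without any parental library with DMSO, differed by -1.67, as a description. HMOX1 differed by -3.41 (1.3e-05) and ITGA2B by -1.38 (0.0018). GP9, which did not pass the filter, differed by -1.07 (0.032 in the fit without it). Among the markers of other blood cells CD14 differed by -2.89 (5.2e-05), LYZ by -2.26 (8.5e-05), MPO by -1.75 (0.0011), TRAC by -1.81 (0.0015) and CD68 by -1.17 (0.039). CTSG, named after its values were seen, differed by 1.08 (2.9e-05). The call for CD68 in the filtered fit was lost without any of 5 single libraries, with differences between -1.25 and -0.95 there. The call for TRAC was lost with a pseudocount of 0.01 (-3.24, unadjusted p = 0.077) and in voom (-3.47, unadjusted p = 0.042). Among the neighbours named above, LRRC17 differed by 1.30 (0.00048; in voom 1.37 with an unadjusted p of 0.019 and no call), TRIM5 by -2.05 (1.3e-05) and TRIM22 by -3.86 (1e-06). GATA1, GATA2 and HMOX1 stayed near or below their parental DMSO levels in DAC-resistant cells, whereas LIN28B was already at 20.3 and 21.5 FPKM there before DAC.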

How the results depend on the processing

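Counts of genes called in the 5 comparisons (DAC in parental cells, DAC in DAC-resistant cells, between the lines with DMSO, between the lines with DAC, and the difference of the DAC effects) were 1387, 35, 1300, 2154 and 1583. A pseudocount of 0.1 gave 2097, 107, 2263 and 3249 for the first 4, and 0.01 gave 2087, 122, 2310 and 3252. A mean of at least 5 FPKM gave 573, 6, 517, 908 and 721, with fewer genes tested, TPM gave 2777, 179, 2586, 4193 and 2797, and voom 3905, 113, 3751, 5598 and 3266. Leaving out 1 library gave between 37 and 53 calls for DAC in DAC-resistant cells, the highest without replicate 1 of the DAC group there. Upper-quartile scaling moved the median of all genes to 0.22 for DAC in parental cells and to -0.30 between the lines with DAC, where calls went from 788 raised and 1366 lowered to 408 and 2148. Quantile normalization gave 1019 and 1161 there, and a mean of at least 5 FPKM 462 and 446. For DAC in parental cells, 993 raised and 394 lowered became 1362 and 258, 843 and 580, and 332 and 241 under the same 3 alternatives.

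NFE4 was higher with DAC in both lines under all alternatives run. BCL11A was called nowhere, and its difference between the lines with DAC turned from -0.13 to 0.12 under quantile normalization, an alternative that forces equal distributions on the libraries. HBB with DAC in parental cells turned from 0.19 to -0.06 without replicate 2 of that DAC group (0.45 without replicate 1), and between the lines with DMSO from 0.71 to -0.18 without replicate 1 of the DAC-resistant DMSO group (1.59 without replicate 2). Of 69 results on named genes, 58 kept direction and side of the threshold under every alternative that gave a value for them. Genes under a mean of 5 FPKM, such as BCL11A and HBB, have none in that setting. With the replicate number as a block, NFE4 stood at 4.51 and BCL11A at 0.40 with DAC in parental cells, and the same-numbered libraries did not deviate together (correlations between -0.0218 and 0.0198), so the numbers do not pair the samples.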
